A study of Mus musculus with 2 samples.

Results

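The cells described here are a small group of brain fibroblasts picked out by transcripts of 5 genes, Krtdap, Myoc, Smoc2, Chad and Prg4. A cell was taken as a member when it had at least 1000 unique molecular identifiers (UMIs, each a counted transcript molecule), at least 500 genes, at most 10% of its UMIs from mitochondrial genes, no UMI of the leukocyte gene Ptprc and at least 2 UMIs of Col1a2 and Dcn together. Its UMIs of the 5 genes also had to sum to at least 5, and to at least 2 times the sum of each of 3 other fibroblast gene sets, led by Slc7a11, by Mfap4 and by Ccn3. This picked 169 cells, 98 from the IL34LacZ/LacZ library and 71 from the IL34LacZ/+ library, out of 4026 cells that carried Col1a2 and Dcn transcripts without Ptprc, 19161 cells that passed the filters and 36026 barcodes. The other sets held 576 cells (Slc7a11), 243 cells (Mfap4) and 1866 cells (Ccn3).

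The series profiled single cells of whole mouse brain, sorted for mural cells and fibroblasts (CD13+ and/or CD140a+O4-), endothelial cells, astrocytes, border macrophages and microglia, by 10x Genomics 3′ sequencing. There was 1 library of IL34LacZ/LacZ brain, homozygous for a LacZ allele of the cytokine gene Il34, and 1 library of IL34LacZ/+ brain, heterozygous for it. Both genotypes therefore carry the LacZ allele, and no wild-type library entered the comparison. How old the mice were, their sex, and how many went into a library is not stated in the labels.

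Neither genotype had a second library, so no test between them was possible, and every interval covers counting error only. The libraries held 95505407 UMIs (IL34LacZ/LacZ) and 87394167 UMIs (IL34LacZ/+). Members had a median of 9506 UMIs in IL34LacZ/LacZ and 8506 in IL34LacZ/+, against 5441.5 and 5268 in the cells of the 3 other sets. Of 103 barcodes found in both libraries, 1 belonged to a member, in IL34LacZ/LacZ. A doublet caller marked 6 of the 98 and 7 of the 71 members.

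Il34 itself was counted in both libraries. Members held 7 Il34 UMIs in IL34LacZ/LacZ and 7 in IL34LacZ/+, which is 6.49 and 10.1 UMIs per 1000000 UMIs (CPM), a ratio of 0.640 with a 95% counting interval of 0.191 to 2.14. In the Slc7a11 set Il34 stood at 100.4 CPM in IL34LacZ/LacZ and 127 CPM in IL34LacZ/+. Which stretch of Il34 the LacZ allele removes is not labelled, so a 3′ tag may check nothing about the genotype.

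Fibroblasts of the brain lie in the meninges, around larger vessels and in the stroma of the choroid plexus, where they lay down collagens and other matrix. The selecting genes are better known from other tissues. Krtdap encodes a small secreted protein of differentiating keratinocytes, Myoc encodes myocilin, a secreted glycoprotein of the eye's trabecular meshwork, and Smoc2 encodes a secreted calcium-binding matrix protein. Chad encodes chondroadherin, a leucine-rich protein of cartilage, and Prg4 encodes lubricin, which lubricates joints and tendons.

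The fibroblast part of the name held. Col1a2 had UMIs in 96.9% of IL34LacZ/LacZ and 97.2% of IL34LacZ/+ members, but it was part of the selection, as was Dcn. Among genes not used to choose the cells, Col1a1 had UMIs in 93.9% and 94.4% of members and Col6a1 in 89.8% and 94.4%. Pdgfra, the receptor CD140a used in the sort, had UMIs in 52.0% and 47.9%. Lum, which encodes the collagen-binding proteoglycan lumican, had UMIs in only 7 of 98 and 1 of 71 members. None of 9 mural cell genes reached 50 UMIs in the members of both libraries together. Despite Chad and Prg4, 9 of 10 cartilage and tendon genes stayed under that level: Col2a1 had 0 UMIs in both libraries, Acan had 7 and 0, and Comp had 0 and 4.

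The genes in the name did not mark every member. Smoc2 had UMIs in 89.8% of IL34LacZ/LacZ members and 93.0% of IL34LacZ/+ members. Myoc had UMIs in 62.2% and 50.7%, Krtdap in 37.8% and 39.4%, Prg4 in 37.8% and 33.8%, and Chad in 32.7% and 26.8%. Smoc2 was thus the shared gene, and each of the others was found in a part of the cells. In cells chosen by endothelial genes, which should lack all 5, the highest share was 2.94% (Prg4, IL34LacZ/LacZ), at a median of 2218 UMIs a cell. In deeper cells chosen by macrophage genes, at medians of 4634 and 4373 UMIs, Prg4 had UMIs in 5.56% and 4.62% and Smoc2 in 4.29% and 2.86%. With cells thinned to 2000 UMIs, which left out 4 and 3 shallower members, Smoc2 kept a UMI in 73.4% and 70.6% of members, Myoc in 53.2% and 48.5%, and Krtdap in 33.0% and 33.8%.

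The same genes had very unequal levels. Myoc stood at 3285 CPM in IL34LacZ/LacZ members (counting interval 3178 to 3395) and 3011 in IL34LacZ/+ members (2883 to 3143). Smoc2 stood at 1298 and 1134 CPM, Krtdap at 2105 and 1003 CPM, Chad at 384 and 325 CPM, and Prg4 at 2447 and 660 CPM. Single cells weighed on some of these sums: 1 cell held 41.0% of the Prg4 UMIs of IL34LacZ/LacZ, and another held 20.04% of the Krtdap UMIs, while the top cell held 7.73% for Myoc and 6.86% for Smoc2. Smoc2 and Prg4 were also common outside the members. In the Ccn3 set Smoc2 had UMIs in 45.5% and 46.7% of cells, at 126 and 121 CPM, and Prg4 in 48.9% and 49.1%, at 378 and 347 CPM.

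Few cells carried all the genes together. Only 25 of 169 members (14.8%) had UMIs of 4 or 5 of the genes, and 17 had UMIs of 1 alone. In 90 members (53.3%) a single gene supplied at least 80% of the summed UMIs. Myoc and Smoc2 were found together, each with at least 5 UMIs, in 54 members, and Krtdap and Smoc2 in 34. Krtdap with Myoc reached this in 18, Krtdap with Prg4 in 8 and Chad with Prg4 in 2. Sorted by the gene with the most UMIs, Myoc led 40 IL34LacZ/LacZ and 27 IL34LacZ/+ members, Smoc2 led 25 and 21, Krtdap 15 and 14, Prg4 12 and 6, and Chad 6 and 3.

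**Figure D1:**
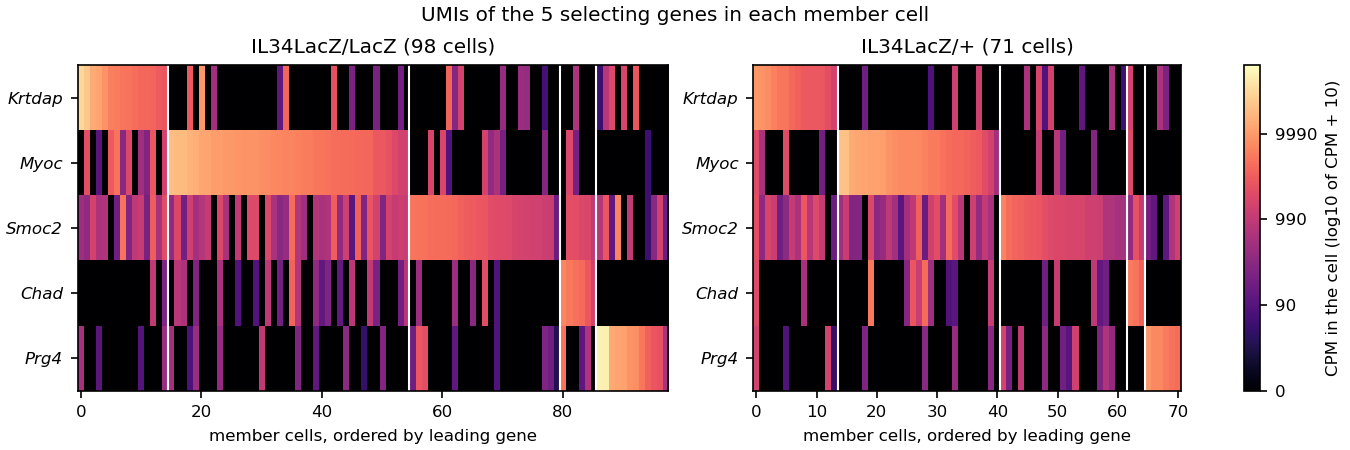
Level of each of the 5 selecting genes (rows, colour on a log10 scale of CPM + 10) in each member cell (columns, 98 IL34LacZ/LacZ cells on the left and 71 IL34LacZ/+ cells on the right), ordered by the gene with the most UMIs. White lines part the cells led by Krtdap, Myoc, Smoc2, Chad and Prg4; Smoc2 runs through most of the other blocks, while Krtdap, Myoc and Prg4 are bright mainly in their own.

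The edges of the rule were thinly filled on the sum and densely filled on the ratio. The summed UMIs of the 5 genes had a median of 65.5 in IL34LacZ/LacZ and 37 in IL34LacZ/+ members, with highest values of 1099 and 294. At a sum of 5 or 6 there were 3 and 2 members, and 1 cell in each library met the ratio with a sum of 3 or 4. By contrast, 499 and 328 cells had a sum of at least 5 but failed the ratio, and in 371 and 252 of these the Ccn3 genes had the largest sum. A further 143 and 68 cells met the gene rule with more than 10% mitochondrial UMIs and were left out.

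Krtdap came with its chromosomal neighbours. Sbsn (suprabasin), Dmkn (dermokine) and Krtdap lie next to each other on the plus strand of chromosome 7 (GRCm38), at chr7:30751471-30756134, chr7:30763756-30781063 and chr7:30787896-30791097, and all 3 are known from the outer layers of the epidermis. Dmkn stood at 355 CPM in IL34LacZ/LacZ and 215 in IL34LacZ/+ members, against 5.81 and 8.50 CPM in the other sets. Sbsn stood at 231 and 104 CPM in members, against 14.2 and 19.4 CPM. Members led by Krtdap had the most of both: Dmkn was 763 and 655 CPM in them, against 255 and 112 CPM in the remaining members, and Sbsn 589 and 239 CPM against 143 and 73.2 CPM. The other selecting genes lie elsewhere: Myoc at chr1:162639155-162649693, Prg4 on the minus strand at chr1:150449412-150466165, Chad at chr11:94565047-94569127 and Smoc2 at chr17:14279506-14404790.

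The promoter windows of these neighbours are shown because the 3 genes were detected in the same cells. Each window runs from 250 bases before to 50 bases after the RefSeq gene start (GRCm38.p6, plus strand, 5′ to 3′), and capitals mark TGAGTCA, the letters of a classical AP-1 site, searched on both strands after the data had been seen.
Krtdap, chr7:30787655-30787954: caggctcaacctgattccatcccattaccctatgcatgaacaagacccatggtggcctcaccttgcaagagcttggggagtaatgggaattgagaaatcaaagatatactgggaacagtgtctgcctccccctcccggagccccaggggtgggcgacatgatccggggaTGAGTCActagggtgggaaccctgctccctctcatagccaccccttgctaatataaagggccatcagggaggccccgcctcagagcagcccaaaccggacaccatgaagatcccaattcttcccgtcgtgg
Dmkn, chr7:30763506-30763805: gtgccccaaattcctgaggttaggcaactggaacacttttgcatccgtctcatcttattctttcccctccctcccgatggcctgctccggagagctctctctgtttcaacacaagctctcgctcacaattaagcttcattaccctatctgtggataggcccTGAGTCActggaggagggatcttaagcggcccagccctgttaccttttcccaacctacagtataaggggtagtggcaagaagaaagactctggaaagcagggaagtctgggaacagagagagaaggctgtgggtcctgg
Sbsn, chr7:30751221-30751520: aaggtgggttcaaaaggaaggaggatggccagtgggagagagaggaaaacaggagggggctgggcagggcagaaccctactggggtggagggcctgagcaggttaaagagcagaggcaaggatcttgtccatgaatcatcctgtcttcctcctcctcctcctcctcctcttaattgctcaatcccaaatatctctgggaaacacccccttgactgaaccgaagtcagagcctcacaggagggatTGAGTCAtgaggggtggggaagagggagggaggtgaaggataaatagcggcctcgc
The match lies 81 bases before the start in Krtdap, 89 in Dmkn and 6 in Sbsn. All 3 RefSeq windows of Dmkn hold a match, and those of Myoc and Chad hold none of these letters. Over all 32851 promoter windows, 1709 (5.20%) hold the motif, and of the 60 windows of the matched genes that were higher in members than in the other sets, described below, 8 do (13.3%). Those 8 include the 3 windows of Dmkn and the window of Sbsn, the genes that prompted the search. The 13.3% therefore cannot be read against the 5.20%. A match of letters in a window is a description, and no binding was measured.

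The cells led by different genes also differed in genes outside the rule. These groups were formed after the data had been seen, and genes were counted where they had at least 40 UMIs, spread over at least 1 in 3 of the led cells in each library, and stood at least 2-fold above the remaining members in both. Myoc-led cells had 46 such genes of 2660 (1.73%) and Prg4-led cells 28 of 761 (3.68%), against 11 of 1374 (0.801%) in Krtdap-led and 4 of 1913 (0.209%) in Smoc2-led cells. The groups differ in size, so these counts do not rank them.

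Krtdap-led cells had more S100a6, a calcium-binding protein gene, than cells led by the other genes, at 4118 CPM in IL34LacZ/LacZ and 1874 in IL34LacZ/+, against 900 and 559 CPM in the remaining members. Timp1, an inhibitor of matrix metalloproteinases, stood at 1461 and 1241 CPM, against 704 and 236 CPM, although Prg4-led cells of IL34LacZ/LacZ had more, at 2404 CPM. Vim, the intermediate filament gene of mesenchymal cells, stood at 1795 and 1033 CPM, against 785 and 461 CPM. In Smoc2-led cells Ulk4 stood at 117 and 95.4 CPM, against 31.0 and 34.8 CPM, and Serpine2, a serine protease inhibitor gene, at 460 and 377 CPM, against 210 and 137 CPM. Inhba, which encodes a subunit of activin A, stood at 83.6 and 126 CPM in Smoc2-led cells, against 36.9 and 41.4 CPM.

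Myoc-led cells carried G0s2, an inhibitor of fat breakdown, at 319 CPM in IL34LacZ/LacZ and 659 in IL34LacZ/+, against 42.9 and 39.9 CPM in the remaining members. Thbs1, the matrix glycoprotein thrombospondin-1, stood at 385 and 473 CPM, against 79.7 and 30.5 CPM. Npr3, the clearance receptor of natriuretic peptides, stood at 171 and 197 CPM, against 29.1 and 37.6 CPM. Vegfa, the endothelial growth factor gene, stood at 61.0 and 98.4 CPM, against 16.9 and 21.1 CPM, and Ccn5 at 103 and 182 CPM, against 16.9 and 25.8 CPM. These genes were counted because they were higher in Myoc-led cells of both libraries, so that agreement is not a separate result.

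Transcripts of major histocompatibility complex class II were also highest in Myoc-led cells. Cd74, the invariant chain, stood at 1316 and 496 CPM, against 189 and 141 CPM in the remaining members, and had UMIs in 80.0% and 55.6% of Myoc-led cells. H2-Aa stood at 528 and 284 CPM, against 98.1 and 86.9 CPM. The 10 macrophage and microglia markers summed to 237 and 284 CPM in Myoc-led cells, against 493 and 246 CPM over all members, Myoc-led cells included. In IL34LacZ/LacZ they summed to 1350 CPM in Smoc2-led cells, and to 306, 192 and 223 CPM in Krtdap-, Chad- and Prg4-led cells. In IL34LacZ/+ they summed to 355 CPM in Krtdap-led and 152 CPM in Smoc2-led cells. Cd74 stood at 549 and 525 CPM in the Ccn3 set, and in endothelial-gated cells of IL34LacZ/LacZ at 64.5 CPM with UMIs in 11.9% of cells. The part of free or macrophage RNA in the class II level was not tested.

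Prg4-led cells carried more Ptgds and more of some junction genes than the remaining members. Ptgds, the prostaglandin D synthase of the meninges, was 7163 CPM in IL34LacZ/LacZ and 4257 in IL34LacZ/+, against 414 and 730 CPM in the remaining members. Cldn11, a tight junction claudin, stood at 982 and 719 CPM, against 103 and 75.5 CPM, and Cdh1, which encodes E-cadherin, at 160 and 350 CPM, against 28.9 and 20.5 CPM. Both are known as genes of the arachnoid barrier. Dapl1 stood at 599 and 424 CPM, against 41.7 and 23.6 CPM. Sema3d, a secreted semaphorin, stood at 383 and 147 CPM, against 22.5 and 20.5 CPM, and Fn1, fibronectin, at 2313 and 2488 CPM, against 481 and 285 CPM. These are 12 and 6 cells, and 6 cells is few for any level. In IL34LacZ/LacZ a list of 10 junction genes summed to 2676 CPM in Prg4-led cells and 2881 CPM in the Ccn3 set. A list of 7 arachnoid barrier and dural border genes, Cldn11 and Cdh1 among them, summed to 2369 and 1591 CPM. Ptgds in the Ccn3 set, given below, was under the Prg4-led level in IL34LacZ/LacZ and over it in IL34LacZ/+. High levels of such genes were thus not particular to Prg4-led cells.

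**Figure D2:**
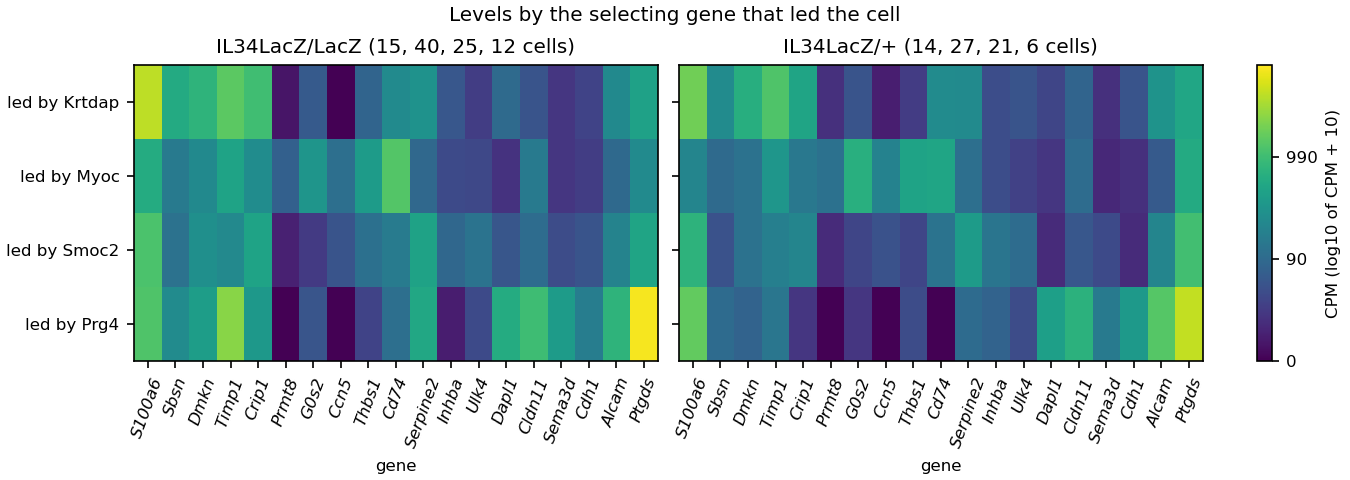
Level of 19 genes (columns, colour on a log10 scale of CPM + 10) in members led by Krtdap, Myoc, Smoc2 or Prg4 (rows), in IL34LacZ/LacZ on the left and IL34LacZ/+ on the right, with UMIs summed over the cells of a row. The Prg4 row is bright for Dapl1, Cldn11, Alcam and Ptgds in both libraries, and the Myoc row for G0s2, Thbs1 and Cd74.

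Members were set against the cells of the 3 other sets within each library. The rule chose the cells by this contrast, so these values are a description. Of 2956 genes with at least 100 UMIs in members, 62 (2.1%) were at least 2-fold higher than in the pooled other sets in both libraries. Of 3160 genes with at least 100 UMIs expected, 107 (3.39%) were at least 2-fold lower. Most of the pooled cells belong to the Ccn3 set, so each set was also taken alone. Of the 62 genes, 22 were at least 2-fold higher than in each of the 3 sets in both libraries, and of the 107 genes, 10 were lower than in each. Against single sets, 59 of the 62 held for the Ccn3 set, 44 for the Slc7a11 set and 27 for the Mfap4 set. Of the 107, 79, 47 and 52 held in the same order.

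The 22 genes, which include the Krtdap neighbours Dmkn and Sbsn, describe cells that the rule set apart. Not all of them were found in most members: Dapl1 had UMIs in 20 of 98 and 11 of 71. Kcnj15, an inwardly rectifying potassium channel, stood at 137 CPM in IL34LacZ/LacZ and 103 in IL34LacZ/+ members, against 7.72 and 4.86 CPM in the pooled other sets. Meis2, a homeobox factor, stood at 143 and 125 CPM, against 8.48 and 11.3 CPM. Piezo2, a mechanosensitive ion channel, stood at 138 and 107 CPM and had UMIs in 64.3% and 52.1% of members, against 45.4 and 41.2 CPM in the Ccn3 set. Igfbp6, a binding protein of insulin-like growth factors, stood at 3148 and 2499 CPM and had UMIs in 99.0% and 100% of members, against 1079 and 1114 CPM in the pooled other sets. Kcnj15 and Meis2 were thus low in the pool, which is mostly Ccn3-set cells. Piezo2 was shared with the Ccn3 set, and Igfbp6 with the pooled sets, at a lower level.

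Matrix and retinoid genes were also among the 22. Col6a3, a chain of type VI collagen, stood at 274 and 162 CPM in members, against 117 and 80.6 CPM in the Mfap4 set and 6.38 and 6.76 CPM in the Ccn3 set. Tnxb, tenascin-X, stood at 108 and 95.7 CPM, against 13.0 and 11.7 CPM in the pooled other sets. Stra6, the membrane receptor for retinol-binding protein, stood at 195 and 164 CPM, against 25.7 and 30.9 CPM. Crabp2, which carries retinoic acid to the nucleus, stood at 692 and 575 CPM, against 208 and 173 CPM. Cd55, which restrains complement at the cell surface, stood at 125 and 123 CPM, against 41.1 and 40.5 CPM, and Clu, a secreted chaperone that also restrains complement, at 1285 and 1196 CPM, against 459 and 512 CPM. Ccl5, at 220 and 236 CPM, came from 6 and 1 cells, and 1 cell held 45.0% of its UMIs.

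Several abundant genes were high in members relative to some of the sets only. Dcn, the proteoglycan decorin which was part of the rule, stood at 4364 CPM in IL34LacZ/LacZ and 3363 in IL34LacZ/+ members, against 486 and 424 CPM in the Ccn3 set but 6656 and 5775 CPM in the Slc7a11 set. Mgp, matrix Gla protein, an inhibitor of calcification, stood at 34427 and 29072 CPM in members, against 16028 and 18868 CPM in the Mfap4 set, 14890 and 14737 CPM in the Ccn3 set and 673 and 907 CPM in the Slc7a11 set. Mgp had UMIs in 100% of members of both libraries. Slc47a1, a transporter of organic cations, stood at 906 and 951 CPM, against 853 and 715 CPM in the pooled other sets.

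The genes lower than in each other set included Gjb2, a connexin, at 36.2 and 37.7 CPM in members, against 314 and 281 CPM in the pooled other sets. Tbx18, a T-box factor of mural and mesenchymal cells, stood at 24.1 and 10.1 CPM, against 764.5 and 706 CPM in the Slc7a11 set and 62.5 and 68.3 CPM in the Ccn3 set. Vtn, vitronectin, stood at 18.5 and 23.2 CPM, against 3662 and 2900 CPM in the Slc7a11 set. Maf, a leucine zipper factor, stood at 97.3 and 87.0 CPM, against 239 CPM and 290 CPM in the Ccn3 set, and Ntrk3, the receptor of neurotrophin-3, at 28.7 and 39.1 CPM, against 108 and 104 CPM. Ptgds, lower than in the pooled sets but not among these 10, stood at 1312 and 1007 CPM in members, against 36745 and 39669 CPM in the Slc7a11 set, 5417 and 8114 CPM in the Ccn3 set and 2156 and 2431 CPM in the Mfap4 set.

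**Figure D3:**
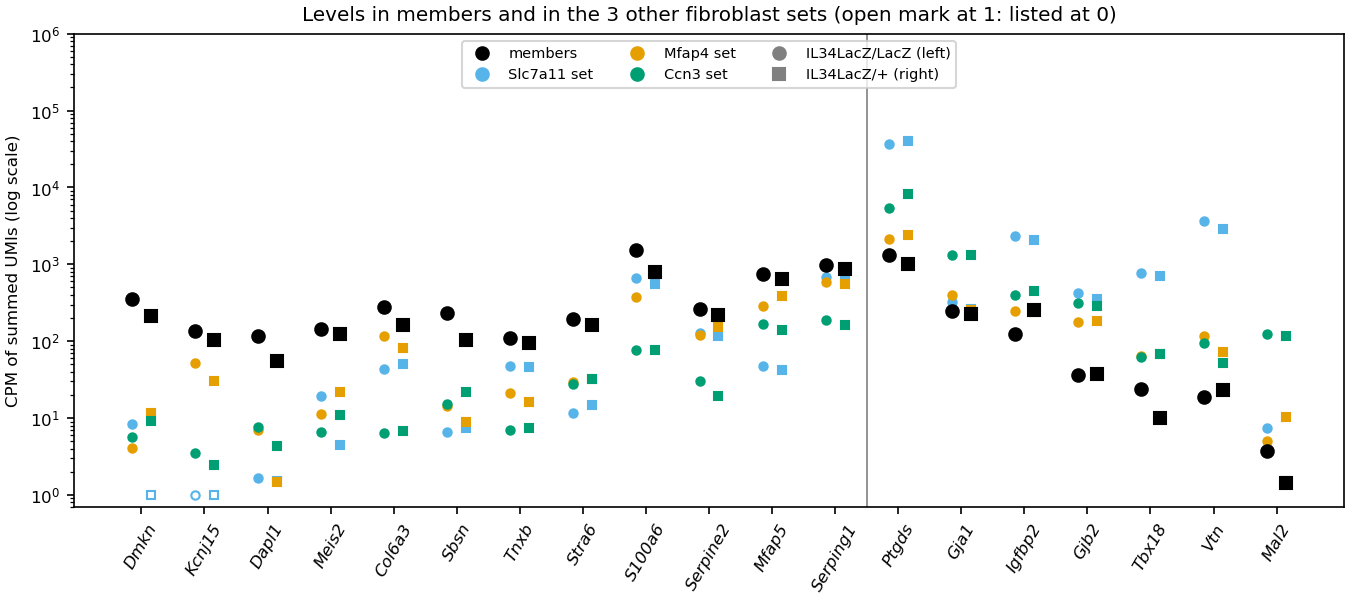
Level (CPM of summed UMIs, log scale) of 12 genes higher and 7 genes lower in members than in the pooled other sets, parted by the grey line. Black marks are members and coloured marks the Slc7a11, Mfap4 and Ccn3 sets; circles on the left of each gene are IL34LacZ/LacZ, squares on the right IL34LacZ/+, and open marks at 1 stand for a gene listed at 0.

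Across all genes, members were closest to the Ccn3 and Mfap4 sets. The correlation of log2(CPM + 10) over 4896 genes in IL34LacZ/LacZ was 0.924 with the Ccn3 set, 0.918 with the Mfap4 set and 0.554 with the Slc7a11 set. Over 4759 genes in IL34LacZ/+ it was 0.928, 0.894 and 0.600. These are correlations across genes within a library, and genes are not independent replicates.

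Lists of genes were counted where a gene had at least 50 UMIs in members. A list gene that members hardly carried therefore could not count as lower, and the lower counts leave such genes out. Over all genes with at least 50 UMIs, 1.86% were at least 2-fold higher than the pooled other sets in both libraries and 1.3% at least 2-fold lower. The median ratios were 0.967 in IL34LacZ/LacZ and 0.955 in IL34LacZ/+. Of 16 collagen genes, 5 were higher and 0 lower, with medians of 2.06 and 1.58. Col14a1 stood at 258 and 193 CPM, against 68.7 and 77.3 CPM, and Col8a1 at 526 and 491 CPM, against 156 and 154 CPM. Of 5 complement genes, 3 were higher, among them Serping1, the C1 inhibitor, at 985 and 868 CPM, against 282 and 243 CPM. Of 5 retinoid genes, 2 were higher, Stra6 and Crabp2.

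Of 14 genes of bone morphogenetic protein and TGF-beta signalling, 3 were higher and 0 lower. Nog, the secreted antagonist noggin, stood at 53.8 and 33.3 CPM, against 5.62 and 3.91 CPM, and Inhba at 47.3 and 69.6 CPM, against 9.24 and 11.2 CPM. Of 13 elastic fibre and microfibril genes, 2 were higher and 3 lower. Mfap5, a microfibril protein, stood at 757 and 652 CPM, against 166 and 153 CPM, and Eln, elastin, at 69.5 and 85.5 CPM, against 19.1 and 14.98 CPM, whereas Fbln1 (fibulin-1) stood at 174 and 145 CPM, against 509 and 539 CPM. The members' elastic fibre genes thus went both ways.

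Of 17 matrix proteases and their inhibitors, 3 were higher and 1 lower. Of 8 genes of the insulin-like growth factor axis, 2 were higher, Igfbp6 and Igfbp5, and 1 lower, Igfbp2. Igfbp5 stood at 10472 and 8010 CPM, against 3527 and 2953 CPM. Of 7 junction genes, 0 were higher and 2 lower: Gja1, connexin 43, stood at 249 and 225 CPM in members, against 1339 and 1325 CPM in the Ccn3 set, and Gjb2 is given above. Of 12 solute carriers, 0 were higher and 2 lower. Of 28 fibroblast transcription factors, 18 had enough UMIs in members to be counted, and of these 0 were higher and 0 lower.

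Members made up close shares of the cells of both genotypes, well within their counting intervals. They were 4.18% (98 of 2343, exact Clopper-Pearson interval 3.41 to 5.07) of the cells with collagen transcripts in IL34LacZ/LacZ and 4.22% (71 of 1683, 3.31 to 5.29) in IL34LacZ/+. Of the cells of all 4 sets they were 5.91% (4.82 to 7.16) and 5.94% (4.67 to 7.43). This rested on the mitochondrial limit: at 20% in place of 10% there were 219 and 125 members, 5.02% and 3.60% of the cells with collagen transcripts. Asking for 4 times the other sums in place of 2 gave 2.56% and 1.66%.

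Between genotypes, 44 of 2968 genes with at least 100 UMIs in members (1.48%) were at least 2-fold higher in IL34LacZ/LacZ, and 24 (0.809%) at least 2-fold lower, with counting intervals that leave out 1. Both lists carried a mark of few cells. Among the 44 higher genes, 12 had at least 50% of their UMIs in 1 cell, and these were all 12 such genes of the 2968. The lower genes were led by transcripts of the choroid plexus epithelium. Both are given first, since they bear on the rest.

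Single IL34LacZ/LacZ cells supplied most UMIs of several genes. Top2a, a topoisomerase of dividing cells, had 141 UMIs in IL34LacZ/LacZ and 0 in IL34LacZ/+ members, with 99.3% in 1 cell. Prc1 and Cenpf, also of cell division, had 134 and 102 UMIs, against 1 and 3. The haemoglobin gene Hbb-bs had 858 UMIs, against 43, with 84.4% in 1 cell. Spp1 (osteopontin) had 808 UMIs, against 32, with 75.8% in 1 cell, and Coch, known from the inner ear, had 131 UMIs, against 5, with 83.8% in 1 cell. These are counts of a few cells and describe no level of the members as a group.

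Ttr, the transthyretin gene of choroid plexus epithelium, stood at 6775 CPM in IL34LacZ/LacZ and 52493 CPM in IL34LacZ/+ members, a ratio of 0.129 (0.126 to 0.132). All 7 choroid plexus epithelium markers were lower in IL34LacZ/LacZ by at least 1.5-fold, with a median ratio of 0.150. Enpp2 (autotaxin) stood at 378 and 2327 CPM, and Folr1, the folate receptor, at 24.1 and 161 CPM. The median ratio of the 7 genes in the other sets was 0.521. Every member carried Ttr, at a median of 0.123% of its UMIs in IL34LacZ/LacZ and 0.239% in IL34LacZ/+.

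A few cells made most of this difference. Ttr took more than 10% of the UMIs in 2 IL34LacZ/LacZ and 5 IL34LacZ/+ members. These cells held 4.36% of the IL34LacZ/LacZ members' UMIs and 20.9% of the IL34LacZ/+ members' UMIs. They therefore add to the total by which the CPM of every gene is scaled, more so in IL34LacZ/+. Without them, a choice made after the data had been seen, 96 and 66 cells remained, and Ttr stood at 1233 and 2380 CPM, a ratio of 0.518. Then 29 of 2721 genes (1.07%) passed the same rule as higher in IL34LacZ/LacZ, and 7 (0.257%) as lower. Genotype ratios of named genes over all members are given below with and without these cells, except where stated. Ratios within cells led by a gene keep these cells, apart from those of Col3a1.

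**Figure D4:**
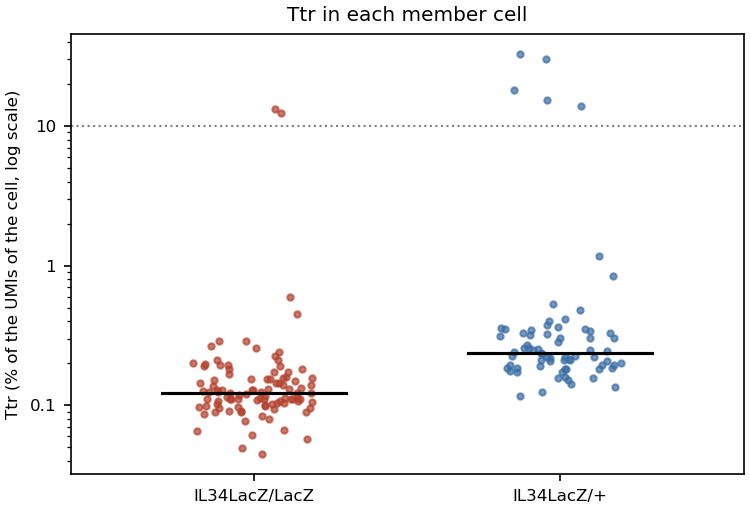
Share of Ttr in the UMIs of each member cell (percent, log scale), 98 IL34LacZ/LacZ cells and 71 IL34LacZ/+ cells, with the median as a black bar and 10% as a dotted line. Most cells lie near the medians of 0.123% and 0.239%, with 2 and 5 cells above 10%.

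Col3a1, a fibrillar collagen of soft tissue, was among the 44 genes. It stood at 1539 CPM in IL34LacZ/LacZ and 715 CPM in IL34LacZ/+ members, a ratio of 2.15 (1.95 to 2.39), and of 1.82 (1.64 to 2.02) without the cells high in Ttr. In the other sets it was 349 and 328 CPM, a ratio of 1.06. Col3a1 had UMIs in 89 of 98 and 67 of 71 members, and its median per cell was 1094 and 726 CPM, with quartiles of 514 and 1829 in IL34LacZ/LacZ and 365 and 1049 in IL34LacZ/+. The difference was spread over many cells, and the quartile ranges overlapped.

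Col3a1 was higher in IL34LacZ/LacZ under each leading gene. It stood at 1856 CPM against 833 CPM in Krtdap-led cells, 1632 against 822 CPM in Myoc-led cells and 1246 against 598 CPM in Smoc2-led cells. In Chad-led cells it was 1501 against 627 CPM and in Prg4-led cells 1296 against 424 CPM, over 6 and 3 and over 12 and 6 cells. The ratios lay between 1.99 and 3.06, and between 1.60 and 3.06 without the cells high in Ttr. The 5 groups of a library share that library, so they are not replicates of the genotype.

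**Figure D5:**
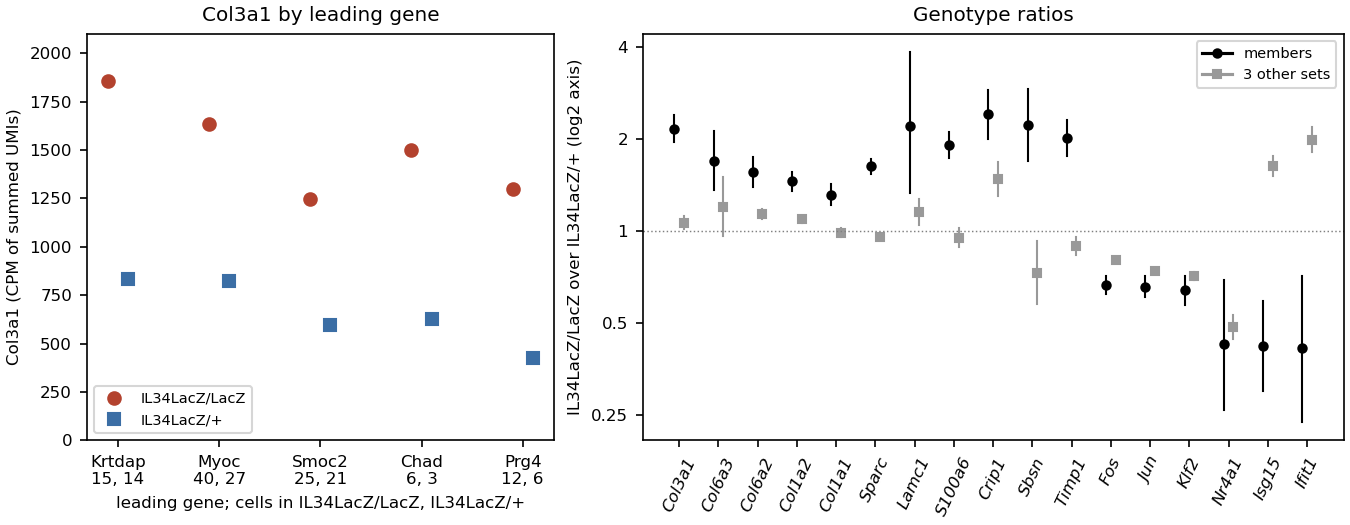
Left, Col3a1 (CPM of summed UMIs) in members led by each selecting gene, IL34LacZ/LacZ (circles) left of IL34LacZ/+ (squares), with the number of cells in each library under the gene. Right, ratio of IL34LacZ/LacZ over IL34LacZ/+ (log2 axis, bars are 95% counting intervals) for 17 genes in members (black) and in the pooled other sets (grey); collagens, Sparc and S100a6 lie above 1 in members, and Isg15 and Ifit1 lie below 1 in members and above 1 in the other sets.

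Col5a1, a chain of type V collagen, had a ratio of 2.42 (1.32 to 4.73) from 53 and 14 UMIs, and of 2.55 without the cells high in Ttr. The more abundant collagens had lower ratios than Col3a1. At a ratio of 1.5 or more, with at least 50 UMIs and whatever the counting interval, 6 of 16 collagen genes were higher and 0 lower, against 9.46% and 4.41% of all 5242 genes, and the median ratio was 1.33, against 1.04 over all genes. Col6a3 had a ratio of 1.69, Col6a2 of 1.55 and Col1a2 of 1.45, while Col1a1 had 1.31. Without the cells high in Ttr, 2 of 16 were higher, against 7.24% of all 4930 genes, and the median was 1.10, against 0.995. Col6a3 then had a ratio of 1.43, Col6a2 of 1.31, Col1a2 of 1.24 and Col1a1 of 1.10. The collagen median thus moved close to that of all genes, and Col3a1 kept most of its difference.

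Other matrix lists varied. Among 8 basement membrane genes, 4 reached a ratio of 1.5 and 0 were as much lower, against 9.46% and 4.41% of all genes. Without the cells high in Ttr 2 reached it, against 7.24%. The basement membrane median was 1.51, and 1.27 without those cells, above the collagen medians of 1.33 and 1.10. Of 11 matricellular genes 3 were higher and 2 lower, and 1 higher and 3 lower without those cells. Of 17 matrix proteases and inhibitors 3 were higher and 1 lower, and of 16 without those cells 1 was higher and 0 lower. Of 5 small leucine-rich proteoglycans 0 were higher and 0 lower in either case. Sparc, a collagen-binding matricellular protein gene, stood at 4057 CPM in IL34LacZ/LacZ and 2495 CPM in IL34LacZ/+ members, a ratio of 1.63, of 1.36 without the cells high in Ttr and of 0.955 in the other sets. Lamc1, a laminin chain, stood at 64.0 and 29.0 CPM, from 69 and 20 UMIs, with ratios of 2.21, 1.87 and 1.15. Dcn had ratios of 1.30, 1.15 and 0.983.

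Krtdap had a genotype ratio of 2.10, of 1.72 without the cells high in Ttr and of 1.503 in the other sets. Of the 11 genes that were higher in Krtdap-led cells, 8 were at least 1.5-fold higher in IL34LacZ/LacZ over all members and 0 lower, against 9.46% and 4.41% of all genes. That count is given with the cells high in Ttr only. Without them Dmkn fell under 1.5, while S100a6, Sbsn, Crip1 and Timp1 stayed above it, and Vim, Ehd2 and Tppp3 are not given. With the cells high in Ttr kept, Eno1, an enzyme of glycolysis, had a ratio of 0.720, Col25a1 of 0.899 and Mal of 0.988. Sbsn had ratios of 2.21, 1.74 without the cells high in Ttr and 0.730 in the other sets, Dmkn 1.66, 1.36 and 0.683, and S100a6 1.90, 1.61 and 0.949. Within Krtdap-led cells alone, with the cells high in Ttr kept, the ratio was 2.46 (1.65 to 3.78) for Sbsn and 2.20 (1.90 to 2.54) for S100a6. It was 1.16 (0.890 to 1.53) for Dmkn and 1.18 (0.969 to 1.43) for Timp1. Timp1 over all members stood at 853 and 425 CPM, with ratios of 2.01, 1.66 and 0.894, and its ratio was 18.6 in the 12 and 6 Prg4-led cells. Krtdap-led cells were 15.3% of IL34LacZ/LacZ and 19.7% of IL34LacZ/+ members, with medians of 13205 and 7374 UMIs, and the part of depth in these ratios was not tested. Myoc had ratios of 1.09 and 0.894 with and without the cells high in Ttr, Smoc2 of 1.14 and 1.004 and Chad of 1.18 and 0.929. Prg4 had ratios of 3.71 and 3.08, with 41.0% of its IL34LacZ/LacZ UMIs in 1 cell.

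Immediate-early genes, which respond within minutes to stimulation and to tissue dissociation, were lower in IL34LacZ/LacZ members, with a like median in the other sets. Of 18 immediate-early and stress genes, 4 were at least 1.5-fold lower and 0 higher, against 4.41% and 9.46% of all genes, with a median ratio of 0.780 in members and 0.790 in the other sets. Fos stood at 1616 CPM in IL34LacZ/LacZ and 2432 CPM in IL34LacZ/+ members, a ratio of 0.664, of 0.573 without the cells high in Ttr and of 0.803 in the other sets. In the same order Jun had ratios of 0.656, 0.581 and 0.737, Klf2 0.640, 0.574 and 0.712, and Nr4a1 0.426, 0.467 and 0.486. By leading gene, with the cells high in Ttr kept, Fos was 0.906 (0.771 to 1.07) in Krtdap-led and 0.923 (0.807 to 1.06) in Smoc2-led cells. It was 0.531 in Myoc-led, 0.565 in Chad-led and 0.455 in Prg4-led cells. Leaving the cells high in Ttr out takes Smoc2-led cells of IL34LacZ/+ from 21 to 18. It also takes the Col3a1 ratio of Smoc2-led cells from 2.08 to 1.60, so the Fos ratio there may rest on those cells. Fos by leading gene without them is not given. Jun and Klf2 had ratios under 1 in all but the Chad-led cells. Without the cells high in Ttr, 7 of the 18 genes were lower, against 4.85% of all genes.

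Interferon-response genes differed in direction between members and the other sets. Isg15, a ubiquitin-like protein gene induced by interferon, stood at 55.6 CPM (60 UMIs in 28 of 98 cells) in IL34LacZ/LacZ and 132 CPM (91 UMIs in 26 of 71 cells) in IL34LacZ/+ members. Its ratio was 0.422 (0.299 to 0.591), and 0.331 without the cells high in Ttr, against 1.62 in the other sets. Per cell, Isg15 had a median of 0 CPM in both libraries and upper quartiles of 57.2 and 96.7 CPM. The highest cell had 1376 CPM in IL34LacZ/LacZ and 2690 CPM in IL34LacZ/+, so a few cells weighed on this ratio. Ifit1 stood at 22.2 and 53.6 CPM, a ratio of 0.415 (0.237 to 0.712), and of 0.343 without the cells high in Ttr, against 1.98 in the other sets, from 13 and 8 cells. Of 7 interferon genes, 3 were at least 1.5-fold lower in IL34LacZ/LacZ members and 0 higher, against 4.41% and 9.46% of all genes, with a median of 0.691, against 1.28 in the other sets. Without the cells high in Ttr the count was 4 of 7, against 4.85%, and the median 0.609. Isg15 and Ifit1 were higher in IL34LacZ/LacZ when the mitochondrial limit was set to 5%, where 13 and 6 members were left.

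Of 8 genes of major histocompatibility complex class I, 2 were at least 1.5-fold higher in IL34LacZ/LacZ members and 0 lower, against 9.46% and 4.41% of all genes, and the median ratio was 1.31, or 1.11 without the cells high in Ttr. These were B2m, at 454 and 232 CPM, a ratio of 1.96, and H2-K1, at 398 and 190 CPM, a ratio of 2.09. Without the cells high in Ttr the ratios were 1.69 and 1.86. For each gene 1 cell held 33.2% and 32.3% of the UMIs, and without that cell the ratios were 1.21 and 1.30.

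Of 7 measured macrophage and microglia markers, 6 were at least 1.5-fold higher in IL34LacZ/LacZ members and 0 lower, against 9.46% and 4.41% of all genes, with a median ratio of 2.05, against 1.17 in the other sets. Without the cells high in Ttr they were 5 of 7, against 7.24% of all genes, with a median of 1.87. C1qa, a chain of complement C1q, stood at 80.7 and 24.6 CPM, from 33 and 12 cells, a ratio of 3.27, of 3.29 without the cells high in Ttr and of 1.53 without called doublets. In the same order its partner chains had ratios of 2.05, 1.98 and 0.836 (C1qb) and of 2.67, 2.32 and 0.990 (C1qc). All 10 markers of that list summed to 493 and 246 CPM in members. The part of macrophage RNA in the class I levels was not tested.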

How the data were processed

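Per the labels' protocols, each library came from a 10x Chromium Next GEM 3′ kit (v3.1). The authors deposited raw UMI counts per gene and barcode, written by Cell Ranger 5.0.0 per the file headers, with GRCm38.p6 (mm10) named in the submitters' processing notes. Each genotype is 1 library, so no test was run.

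Cells were filtered and chosen by the rule given in the results, UMIs were summed over members, and levels are UMIs per 1000000 of those sums (CPM). Ratios carry exact conditional binomial 95% intervals, CPM exact Poisson intervals and shares Clopper-Pearson intervals. These cover counting error only. Genotype calls needed a ratio of 2, at least 100 UMIs and an interval without 1. List calls needed only a ratio of 1.5 and at least 50 UMIs. The members, the 38 gene lists and the tests were chosen with earlier results of these data known.

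Named genes were the selecting genes, up to 4 genes a list by size of ratio, and the genes with the most extreme ratios. The last were 20 higher and 12 lower against the other sets, and 12 higher and 12 lower between genotypes. Other genes, among them those compared with each set alone, those of the cells led by each gene, Piezo2, Maf, Ntrk3, Eno1, Col25a1 and Mal, were chosen after their values were seen. Doublets were called with Scrublet in scanpy 1.11.5 at an expected rate of 10%, kept, and left out in an alternative. Calculations used Python 3.11.15, numpy 2.4.6, scipy 1.17.1 and pandas 2.3.3, and the counting code was tested on simulated data. Promoter windows came from RefSeq tables (GRCm38.p6), which had no entry used here for Smoc2 and Prg4. Alternatives changed the filters, the rule's thresholds, the depth of each cell, the count minimum and the fold.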

Additional observations from a re-analysis of the deposited data

How the results depend on the processing

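No paired analysis was possible because each genotype is 1 library. Removing cells with transcripts of other cell types left 2 and 0 members and gave no value. That filter acted on a few UMIs of marker lists that include Ttr, which every member carried. The loss is therefore no measure of how many members were mixed with other cells. The share of members among cells with collagen transcripts had a log2 ratio of IL34LacZ/LacZ over IL34LacZ/+ of -0.01, which moved to 0.46 with a mitochondrial limit of 5%, 0.48 with 20% and 0.62 with at least 4 times each other sum. The 44 genes higher in IL34LacZ/LacZ were 29 with called doublets removed, 6 with cells thinned to 2000 UMIs, 134 from 50 UMIs per gene, 17 from 200 UMIs, 171 at a ratio of 1.5, 18 without the top cell of each gene and 29 without cells over 10% Ttr. For the 24 lower genes the same settings gave 9, 2, 52, 13, 84, 11 and 7, and at least 4 times each other sum gave 10. The 62 genes higher in members than in the other sets were 16 with a mitochondrial limit of 5%, 101 with 20%, 26 in thinned cells, 97 from 50 UMIs and 123 at a ratio of 1.5. The 107 lower genes were 13 with a mitochondrial limit of 5%, 68 with at least 4 times each other sum, 30 in thinned cells, 198 from 50 UMIs, 62 from 200 UMIs and 262 at a ratio of 1.5. Fewer cells, fewer UMIs or another threshold set the size of these counts by construction. For the change with doublets the cause was not tested.

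Log2 genotype ratios that turned direction were as follows. A mitochondrial limit of 5%, which left 13 and 6 members, gave -0.020 for C1qb, -0.61 for C1qc, 0.56 for Ifit1, 1.30 for Isg15 and -5.11 for Krtdap. Removing called doublets gave -0.26 for C1qb and -0.014 for C1qc. Leaving out cells over 10% Ttr, added after seeing the data, gave 1.25 for Car2, 0.082 for Folr1, 0.68 for Igfbp2, 1.08 for Kcnj13, 0.30 for Pcolce2 and 0.12 for Slc22a17. At least 4 times each other sum gave 0.047 for Igfbp2 and -0.48 for Nnat. For Gm19935 a rule sum of at least 10 gave -0.0029 and Col1a2 and Dcn of at least 10 gave -0.11, and for H2-K1 thinning gave -0.089. The cause was not tested. Over 68 genes, 568 values stayed within the counting interval, 270 moved and 18 turned direction, and over 28 lists 227 stayed and 106 moved. These included an equal weight for each leading gene, also added after seeing the data. The small number of members and 1 library per genotype limit every genotype value.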
